A study of Mus musculus with 6 samples.

Results

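The STAT genes encode signal transducers and activators of transcription, and Stat2, Stat3, Stat4, Stat5a, Stat5b and Stat6 were followed here by gene name in a table of 57010 genes, of which they are 6. The table held RNA-seq counts of hypoxic (HO) primary cardiomyocytes from neonatal mice (NMCMs) in 6 libraries, 3 given vehicle (HO + Vehicle, V1 to V3) and 3 given the plant sterol β-sitosterol (HO + β-SITO, T4 to T6). The cells came from hearts of C57BL/6 mice 1 to 3 days old and were parted from fibroblasts by differential adhesion, and neither the β-SITO dose nor the length of hypoxia behind these libraries is given in the sources used here. Both groups were hypoxic, so the comparison asks what β-SITO changed under hypoxia and gives no value for hypoxia itself. No source says whether the 3 libraries of a group came from separate cultures, so p-values measure the spread between libraries, which may be technical.

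STAT proteins wait in the cytoplasm until a cytokine or hormone binds its receptor and a kinase of the JAK family on that receptor phosphorylates them, after which paired STATs enter the nucleus and bind DNA. Stat2 serves type I interferon receptors together with Irf9, Stat3 serves receptors of the interleukin-6 family that use gp130, and Stat4 serves interleukin-12. Stat5a and Stat5b serve growth hormone, prolactin and several hematopoietic cytokines, and Stat6 serves interleukin-4 and interleukin-13. In the heart, Stat3 is known for protection of cardiomyocytes under ischemia. The libraries measured transcripts, and neither STAT protein nor its phosphorylation was measured in them.

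The libraries held 16694734 to 18460522 counts, and after removal of genes with too few counts 14799 genes were tested with edgeR's quasi-likelihood test. Levels are given as CPM (counts scaled to the size of the library) after TMM normalization, which scales for differences in library composition. A gene was called differentially expressed (a DEG) at a Benjamini-Hochberg adjusted p under 0.05 with more than 2-fold change, the rule of the study. DEGs made up 22.8% of the genes tested (10.1% lower with β-SITO and 12.8% higher), while 66.8% had an adjusted p under 0.05 at any size of change and 70.5% had groups whose libraries did not overlap. The HO + β-SITO libraries carry a letter at the end of their names that the HO + Vehicle libraries lack, and a batch that this letter might mark cannot be told apart from the treatment. Library T4 stood apart from T5 and T6 in its cardiomyocyte markers, which summed to 5370 CPM in T4 against 9020 and 9170 CPM. Without T4 the log2 fold change was -3.51 for Stat2, -0.84 for Stat3, -0.77 for Stat5a, 0.05 for Stat5b and -0.36 for Stat6, and the same members passed the test.

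Among the STAT genes, Stat2 fell most, Stat3 and Stat5a fell to 55.1% and 55.9% of their vehicle levels, Stat6 fell slightly and Stat5b did not pass the test. Stat4 was close to absent and was not tested. Of the 5 members tested, 1 was a DEG (Stat2, lower; background 22.8% in either direction and 10.1% lower) and 4 had an adjusted p under 0.05, each of them lower (33.8% of all tested genes passed in that direction and 33.0% in the other). No vehicle library overlapped the β-SITO libraries for 4 of the 5, against 70.5% of all genes tested, so separation of the groups by itself was common in these data. The median log2 fold change of all genes tested was -0.01.

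**Figure D1:**
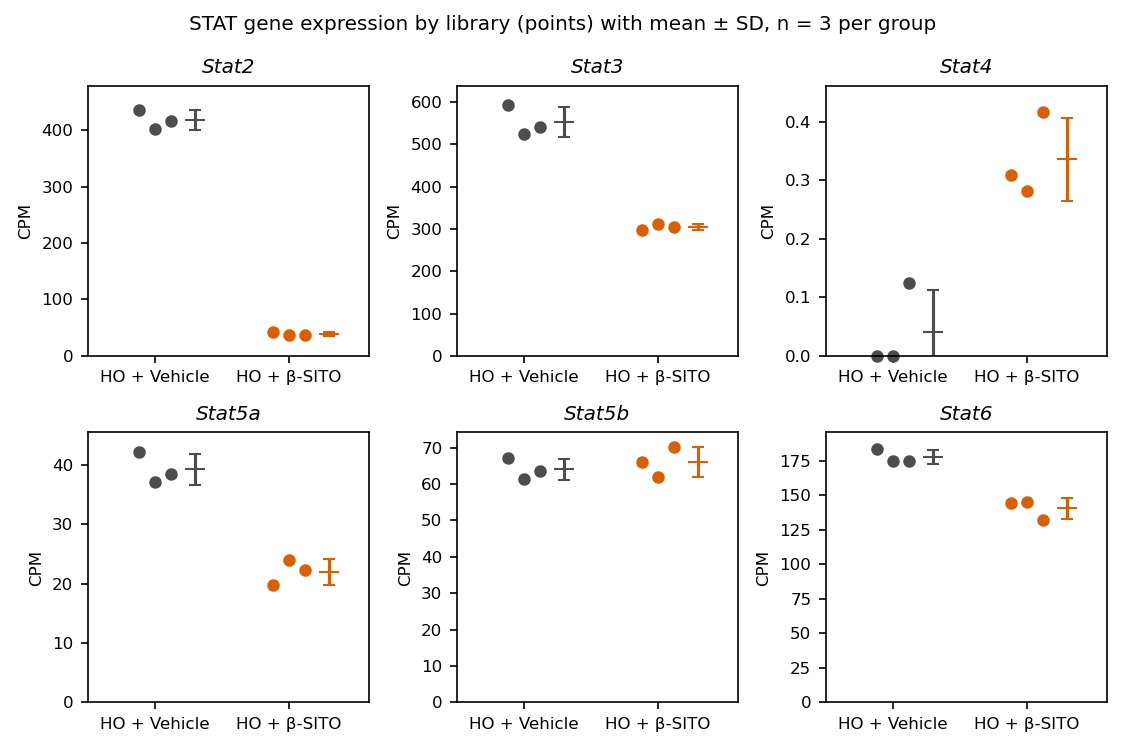
CPM of each STAT gene in every library (points; HO + Vehicle grey, HO + β-SITO orange) with the mean and SD of 3 libraries beside them, on linear axes from 0 that differ between panels. The 3 HO + β-SITO libraries lie below the 3 HO + Vehicle libraries for Stat2, Stat3, Stat5a and Stat6, the groups overlap for Stat5b, and Stat4 stays under 0.5 CPM throughout, where the lower end of its vehicle SD bar lies below 0.

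Stat2, the partner of Irf9 in the interferon-stimulated complex ISGF3, lies at chr10:128106428-128128718 on the plus strand (GRCm39, the build in the submitters' processing notes). Its level was 435.5, 401.8 and 416.9 CPM in V1 to V3 and 43.2, 36.5 and 36.6 CPM in T4 to T6. Every HO + Vehicle library was thus above every HO + β-SITO library by a wide gap, and T4 lay above T5 and T6, which were close to each other. The log2 fold change was -3.43 (SE 0.0755, 95% interval -3.59 to -3.27), a level 10.8-fold lower, with an adjusted p of 3.58e-15 in edgeR's quasi-likelihood test. Of all tested genes, 2.53% had a lower log2 fold change. The exact permutation test over libraries gave p = 0.1 (two-sided), the smallest that 3 against 3 allow. Across all alternatives to the analysis the log2 fold change of Stat2 stayed between -3.51 and -3.28, and Stat2 was a DEG in each.

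The RefSeq windows around the start sites of Stat2 and Stat3 (250 bases before to 50 after, GRCm38.p6) are shown together. The search covered, on both strands, the STAT pattern of TTC and GAA set 3 bases apart, its wider form with 4 bases between them that Stat6 is known to prefer, and 2 copies of GAAA set 2 bases apart, the core of the interferon-stimulated response element. These patterns occur in 8.30%, 6.95% and 3.44% of 32851 RefSeq windows of the same length. Capitals mark the matches.
Stat2, chr10:128270248-128270547, plus strand: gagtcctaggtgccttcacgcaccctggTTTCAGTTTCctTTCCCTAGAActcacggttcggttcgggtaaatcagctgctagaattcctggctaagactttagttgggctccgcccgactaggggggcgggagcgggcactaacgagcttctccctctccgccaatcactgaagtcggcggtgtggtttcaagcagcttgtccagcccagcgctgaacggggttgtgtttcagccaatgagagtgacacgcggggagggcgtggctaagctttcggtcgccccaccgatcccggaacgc
Stat3, chr11:100939491-100939790, minus strand: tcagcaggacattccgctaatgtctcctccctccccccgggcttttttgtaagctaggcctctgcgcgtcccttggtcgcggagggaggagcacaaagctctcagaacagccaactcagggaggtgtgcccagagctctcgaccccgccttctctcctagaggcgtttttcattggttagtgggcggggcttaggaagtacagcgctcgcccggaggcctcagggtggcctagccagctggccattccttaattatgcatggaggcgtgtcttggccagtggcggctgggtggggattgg
The Stat2 window held TTTCAGTTTC, a match to the response element on the opposite strand, 222 to 213 bases before the start site. It was followed by TTCCCTAGAA, a match to the wider STAT pattern, 210 to 201 bases before it. The Stat3 window held none of the 3 patterns, nor did the windows of Stat5a, Stat5b and Stat6. The 6 members had 9 windows in all, since some have several start sites, and 2 windows held a match. The share of all windows with any of the 3 patterns was not computed, so this count has no background beside it. A match describes letters in the reference and is not evidence of binding in these cells. Whether the matches bear on the change of any member was not tested.

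Stat3, the STAT of interleukin-6 type cytokines, lies at chr11:100775924-100830366 on the minus strand and had the most counts of the 6. It measured 592.7, 523.8 and 540.0 CPM in V1 to V3 against 297.5, 311.0 and 304.3 CPM in T4 to T6. The groups did not overlap, and V1 was the highest of the vehicle libraries. The log2 fold change was -0.86 (SE 0.0616, 95% interval -0.99 to -0.73), a 1.81-fold lower level that was larger than the spread between libraries (edgeR, adjusted p = 6.72e-09) and short of 2-fold. Of all tested genes, 11.9% had a lower log2 fold change than Stat3. Isoforms of Stat3 were not separated in the gene counts.

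Stat5a and Stat5b, close paralogs that respond to growth hormone and prolactin, differed from each other. Stat5a (chr11:100750177-100775995, plus strand) measured 42.1, 37.1 and 38.5 CPM in the vehicle libraries and 19.7, 23.95 and 22.2 CPM in the HO + β-SITO libraries. These groups did not overlap, and the log2 fold change of -0.84 (SE 0.0858, 95% interval -1.02 to -0.66; edgeR, adjusted p = 4.33e-07) was short of 2-fold. Stat5b (chr11:100671557-100741550, minus strand) measured 67.1, 61.4 and 63.7 CPM against 66.1, 61.9 and 70.1 CPM. Its groups overlapped, and its log2 fold change of 0.04 (95% interval -0.10 to 0.19; edgeR, adjusted p = 0.571) did not pass. When counts were scaled by library size alone, which raises the median log2 fold change of all genes by 0.15, Stat5b had a log2 fold change of 0.19 with an adjusted p of 0.0172.

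The balance of these paralogs can be read within a library, free of any scaling between libraries. Stat5a took 38.55%, 37.7% and 37.7% of the summed Stat5a and Stat5b counts in V1 to V3, and 22.9%, 27.9% and 24.1% in T4 to T6. All 3 HO + β-SITO libraries were below all vehicle libraries. The mean share was 37.97 ± 0.511% in the HO + Vehicle group and 24.96 ± 2.59% in the other (SD, n = 3), a difference of -13.0 percentage points with p = 0.1 in a two-sided exact permutation test, the lowest that 3 against 3 can give. The longest protein-coding transcripts of the paralogs share a run of 324 identical bases, and 387 of the 3814 windows of 75 bases in Stat5a (10.1%) also occur in Stat5b. How reads from such stretches were assigned is not given in the sources used here, so the split between Stat5a and Stat5b is uncertain to that extent. No other pair of members shared a window of that length.

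Stat3, Stat5a and Stat5b lie side by side on chromosome 11, and the 3′ ends of Stat3 and Stat5a overlap by 72 bases on opposite strands. The counts of Stat3 were far higher than those of Stat5a (43621 against 3116 over the 6 libraries), and without strand information reads in the overlap cannot be told apart. The ratio of Stat3 to Stat5a per kilobase of exon, chosen for mention after its values were seen, averaged 10.5 ± 0.0309 with vehicle and 10.4 ± 0.812 with β-SITO (SD, n = 3; p = 0.8 in a two-sided exact permutation test). Its values were 10.5, 10.6 and 10.5 in V1 to V3 and 11.3, 9.72 and 10.25 in T4 to T6, so the groups overlapped.

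Stat6, the STAT of interleukin-4, lies at chr10:127478855-127496826 on the plus strand. It measured 183.4, 174.7 and 174.7 CPM in V1 to V3 and 144.1, 145.1 and 131.7 CPM in T4 to T6, with no overlap. The log2 fold change was -0.34 (SE 0.0591, 95% interval -0.47 to -0.21; edgeR, adjusted p = 1.14e-04), a 1.27-fold lower level. With library size only it was -0.19 (adjusted p = 0.00926), so the size of this change depended on the scaling by more than 1.5 times. Stat6 overlaps Nab2 by 40 bases on the opposite strand.

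Stat4, which is best known from T and NK cells, lies at chr1:52026307-52146348 on the plus strand. It had 0, 0 and 2 counts in V1 to V3 and 6, 5 and 8 counts in T4 to T6, and it did not pass the filter on low counts. All HO + β-SITO libraries were above the vehicle libraries, and the ratio of the summed counts per effective library size was 8.06 (95% exact interval 1.95 to 71.4, counting error only). A count of 3, the limit that a library at 0 allows, comes to 0.186 to 0.189 CPM in the HO + Vehicle libraries. When no filter was applied, Stat4 passed as higher (log2 fold change 2.82, edgeR, adjusted p = 0.0109). A long noncoding RNA, Gm28177, overlaps Stat4 on the same strand and held 14 counts over the 6 libraries, against 21 for Stat4. One of the Stat4 windows in RefSeq held GAAAGTGAAA, a match to the interferon response element, 97 to 88 bases before the start site.

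To compare levels between members, CPM was divided by exon length in kilobases, the union of all exons in GENCODE vM21. In the HO + Vehicle group the order was Stat2 (70.55 ± 2.85 CPM per kb, SD, n = 3), Stat3 (58.0 ± 3.79), Stat6 (40.35 ± 1.14), Stat5b (11.6 ± 0.520), Stat5a (5.502 ± 0.364) and Stat4 (0.0107 ± 0.0185), and no neighbours in this order overlapped. In the HO + β-SITO group the order was Stat3 (31.9 ± 0.707), Stat6 (31.9 ± 1.70), Stat5b (11.9 ± 0.738), Stat2 (6.54 ± 0.643), Stat5a (3.08 ± 0.301) and Stat4 (0.0866 ± 0.0185), where Stat3 and Stat6 overlapped. Stat2 thus moved from the first place to below Stat5b. The length used matters for close neighbours. With the longest protein-coding transcript as the length, Stat2 (91.4 to 99.0 CPM per kb) and Stat3 (86.7 to 98.1) overlapped in the HO + Vehicle group, while Stat3 (49.2 to 51.5) lay above Stat6 (34.9 to 38.4) in the HO + β-SITO group.

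As a share of the summed levels per kilobase of the 6 genes, Stat2 took 37.6%, 37.9% and 38.3% in V1 to V3 and 8.47%, 7.14% and 7.36% in T4 to T6. Stat6 took 21.7 ± 0.448% in the HO + Vehicle group and 37.3 ± 1.42% with β-SITO, and Stat3 took 31.15 ± 0.597% and 37.4 ± 0.950% (SD, n = 3). The share of Stat5b was 6.22 ± 0.0308% against 14.0 ± 1.07%, and that of Stat5a 2.96 ± 0.0584% against 3.60 ± 0.353%. Shares sum to a whole, so the fall of Stat2 by itself raises the others, and the share of Stat3 and of Stat5a was higher although their CPM was lower. None of the 6 shares overlapped between groups, though the 6 are tied to each other by their sum. For comparison, 70.5% of all genes tested had groups that did not overlap in CPM. Each share had p = 0.1 in a two-sided exact permutation test (0.1 adjusted over the 6), the lowest possible. The summed level of the 6 genes was 185.9 ± 8.56 CPM per kb against 85.45 ± 1.34, and without Stat2 it was 115.4 ± 5.77 against 78.9 ± 1.24 (SD, n = 3).

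**Figure D2:**
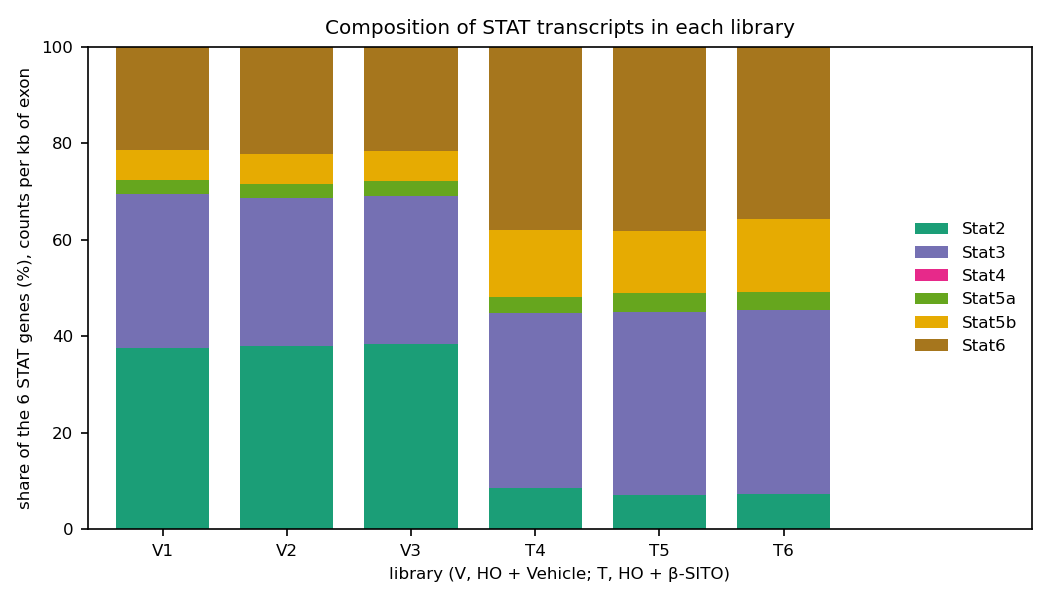
Share of each STAT gene in the summed counts per kilobase of exon of the 6 genes, as stacked bars for each library (V1 to V3, HO + Vehicle; T4 to T6, HO + β-SITO), in percent. Stat2 (bottom) takes 37.6% to 38.3% of the vehicle bars and 7.14% to 8.47% of the HO + β-SITO bars, and Stat4 is too low to be seen.

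Replicates were close for the members that were tested. The coefficient of variation between libraries was 2.83% (Stat6) to 6.61% (Stat5a) in the HO + Vehicle group and 2.21% (Stat3) to 9.83% (Stat2) in the HO + β-SITO group. Counting error alone would give 1.06% to 3.99% and 1.32% to 4.93%. Stat2 in the HO + β-SITO group rests on 650 to 840 counts per library, and Stat5a on 383 to 427.

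The cultures held transcripts of several cell types, and in bulk RNA fewer cells of a type and less RNA per cell cannot be told apart. Cardiomyocyte markers summed to 5920 to 6820 CPM in the HO + Vehicle libraries, below T5 and T6 and above T4. None of these 10 genes was at 0, and 3 were called higher with T4 and 3 without it. At an adjusted p under 0.05 without regard to size (edgeR, all libraries), 4 were higher and 2 lower, the latter being Tnnt2 and Pln. Among all genes tested, 12.8% were called higher and 10.1% lower. At an adjusted p under 0.05 alone, 33.0% of all genes tested were higher and 33.8% lower. Myh6, the main myosin heavy chain of the mouse heart, measured 2020 CPM in T4 against 3270 and 3260 CPM in T5 and T6. Fibroblast markers summed to 29800 to 31100 against 44400 to 45500 CPM (0 of 8 called). Without regard to size, 5 of these 8 genes were higher and 2 lower at an adjusted p under 0.05 (edgeR). Most of the fibroblast sum came from the 3 collagen genes. The other 5 fibroblast genes summed to 3860 to 4280 against 3620 to 3880 CPM. Whether the fibroblast or the cardiomyocyte sum is larger thus depends on the genes counted. Macrophage markers summed to 1280 to 1410 against 2840 to 3490 CPM (9 of 12 called higher and 1 lower). Endothelial markers summed to 200 to 230 against 814 to 855 CPM (8 of 8 higher). Smooth muscle markers summed to 558 to 601 against 1080 to 1280 CPM (3 of 5 higher). Most of the smooth muscle sum came from Acta2 (mean 561.7 against 1114 CPM), which was not called (log2 fold change 0.99). T and NK cell markers summed to 5.56 to 5.96 against 3.32 to 3.85 CPM, with Cd3d, Cd3e, Cd3g and Ncr1 at 0 in every library. Of this list 2 genes were tested, and Lck fell (4.90 to 1.39 CPM) while Trac rose (0.878 to 1.67 CPM, log2 fold change 0.92, edgeR, adjusted p = 0.00932). Cd8a and Klrb1c had no count with vehicle and 2 to 3 and 2 to 10 counts per library with β-SITO. B cell markers summed to 12.4 to 13.2 against 0.308 to 0.618 CPM, dendritic cell markers to 15.2 to 17.2 against 19.5 to 21.6 CPM (Cd209a at 0) and neutrophil markers to 0.744 to 1.25 against 0.781 to 1.49 CPM (Ly6g and Retnlg at 0). The part of these cell types in the STAT values was not tested.

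JAK kinases phosphorylate the STATs, and all 4 were lower, by unequal amounts. Jak2, which serves Stat5 and interleukin-12 receptors among others, measured 369, 407 and 416 CPM in V1 to V3 and 34.5, 37.9 and 35.3 CPM in T4 to T6, with no overlap. Its log2 fold change of -3.47 (edgeR, adjusted p = 1.48e-15) was close in size to that of Stat2. Jak1, shared by most cytokine receptors of this class, had a log2 fold change of -0.78 (adjusted p = 1.51e-08), Tyk2 of -0.84 (1.13e-07) and Jak3 of -0.41 (0.00190), none of which reached 2-fold. On the list of 9 STAT kinases, 3 were DEGs lower and 1 higher, and the median was -0.78. For this and the lists below, the background among all genes tested was 10.1% lower and 12.8% higher. Src, a kinase that can phosphorylate STATs without a receptor, fell (-1.18), and Fyn, of the same family, rose (1.09).

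Among partners and coactivators, Irf9 fell with Stat2 but less far. Irf9 measured 128, 121 and 118 CPM in V1 to V3 against 39.4, 41.5 and 34.6 CPM in T4 to T6, a log2 fold change of -1.67 (edgeR, adjusted p = 1.36e-11). Nmi, which binds STATs and is itself induced by interferon, fell more (-3.72), and the importin Kpna3 also fell (-1.27). These were the 3 DEGs among 12 genes of this list, near the share of 22.8% among all genes tested. On this list 0 were DEGs higher, and the median was -0.16. The acetyltransferase genes Crebbp (log2 fold change -0.12, adjusted p = 0.126) and Ep300 (0.07, adjusted p = 0.283) did not pass the test.

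Inhibitors of STAT signaling went both ways. Of the 20 inhibitors tested, 5 were DEGs lower and 1 was higher, and the median log2 fold change was -0.03. Usp18, which restrains the type I interferon receptor, had 7133, 7674 and 7334 counts in V1 to V3 and 103, 48 and 72 counts in T4 to T6 (log2 fold change -6.87, edgeR, adjusted p = 6.68e-16). Socs1 (-3.24) and Socs3 (-1.78), feedback inhibitors of JAK kinases, fell as well. Socs3, the inhibitor of gp130 signaling, measured 128, 135 and 121 CPM in V1 to V3 against 38.2, 36.6 and 36.6 CPM in T4 to T6. The other DEGs that fell were the phosphatase genes Ptpn1 (-1.04) and Ptpn2, which went from 42.7 ± 3.24 to 15.1 ± 0.838 CPM (SD, n = 3). Socs2 (0.52, adjusted p = 2.80e-06) and Cish (-0.59, adjusted p = 6.11e-05), both known as Stat5 targets, passed the test in opposite directions without reaching 2-fold. Pdlim2, a ubiquitin ligase for STATs, rose by 2.61 on the log2 scale, from 15.1 ± 1.78 to 91.85 ± 5.86 CPM (SD, n = 3).

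Ligands and receptors are grouped by a STAT that they act through, and some of them also act through other STATs. On the Stat3 side, 6 of 12 ligand genes were tested, of which 3 were DEGs lower and 1 higher, with a median of -2.09. Il6 (-4.83), Il27 (-4.69) and Lif (-3.72) fell, and Ctf1, which encodes cardiotrophin-1, rose (1.03, from 1.08 ± 0.0942 to 2.23 ± 0.0887 CPM, SD, n = 3). Of 10 receptor genes tested on this side, 3 were DEGs lower and 0 higher, with a median of -0.07. Osmr (-1.81), Lifr (-1.73) and Csf3r (-2.08) fell. At an adjusted p under 0.05 without regard to size, 4 were lower and 3 higher. Il6ra, which binds interleukin-6 itself, rose from 17.8, 17.2 and 18.5 CPM in V1 to V3 to 38.4, 31.3 and 34.9 CPM in T4 to T6 (log2 fold change 0.97, edgeR, adjusted p = 1.17e-07), just short of 2-fold. Il11ra1 (0.67) and Cntfr (0.80), the receptor genes for interleukin-11 and ciliary neurotrophic factor, also rose. Il6st, which encodes gp130, the chain that most of these receptors share, fell by 0.31 on the log2 scale (edgeR, adjusted p = 0.00167), from 1420 ± 137 to 1148 ± 56.6 CPM (SD, n = 3).

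On the Stat5 side, 15 of 26 genes were tested, and 7 were DEGs lower and 2 higher (median -0.84). Csf2, which encodes GM-CSF, had 152 counts over the HO + Vehicle libraries and 1 over the HO + β-SITO libraries, a ratio of 179 with a 95% counting interval of 31.7 to 7120. Il15ra (-3.65) and Tslp (-3.31) fell, whereas the prolactin receptor gene Prlr rose (4.09), from 4, 5 and 1 counts in V1 to V3 to 73, 71 and 63 counts in T4 to T6. Ghr, the growth hormone receptor gene, had 197.9 ± 9.15 against 184.7 ± 6.17 CPM (SD, n = 3) and did not pass (log2 fold change -0.10, edgeR, adjusted p = 0.145).

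On the Stat6 side, 4 of 5 genes were tested and 2 were DEGs lower (median -1.47). Il13ra1, a chain of the receptor for interleukin-4 and interleukin-13, fell from 287.9 ± 19.1 to 51.1 ± 3.61 CPM (SD, n = 3; log2 fold change -2.49), and the decoy receptor gene Il13ra2 had 382 counts over the HO + Vehicle libraries and 3 over the HO + β-SITO libraries. Il4ra, the chain that binds Stat6, had a log2 fold change of -0.45 (edgeR, adjusted p = 8.80e-06). On the Stat4 side, 2 of 6 genes were tested and both were DEGs lower. This count depended on which low genes passed the filter: it was 4 without T4, T5 or T6, 3 without V1 or V2 and 5 with no filter. Il12rb1 had 79, 93 and 104 counts in V1 to V3 and 1, 2 and 3 counts in T4 to T6 (log2 fold change -5.67, edgeR, adjusted p = 4.17e-10), and the ligand gene Il12b had 1694 counts over the HO + Vehicle libraries and 1 over the others. Il12rb2, the receptor chain that recruits Stat4, was not tested; it had no count in V1 to V3 and 10, 7 and 2 counts in T4 to T6.

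Genes known as targets of each STAT were listed as well, and many of them also answer to other transcription factors. The Stat3 target list had 24 genes tested, and 15 were DEGs lower and 2 higher (median log2 fold change -1.71). The acute-phase genes Saa3 (-8.89), Lcn2 (-8.49) and Hp (-5.74) and the interleukin-1 antagonist gene Il1rn (-5.86) fell most. Lcn2 had 7618, 8480 and 7875 counts in V1 to V3 and 32, 25 and 21 counts in T4 to T6. Fos and Ccnd1 were the 2 members called higher (log2 fold change 1.51 and 1.17), and Mcl1 did not pass (-0.05, edgeR, adjusted p = 0.474).

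The Stat5 target list, with 14 genes tested, had 2 DEGs lower and 3 higher (median -0.39). Igf1, a growth factor gene that growth hormone induces through Stat5, rose from 29.8 ± 2.90 to 182.4 ± 4.40 CPM (SD, n = 3; log2 fold change 2.62), and Nr4a3 rose as well (1.57). The DEGs that were lower were Pim1 (-2.43), a kinase gene, and Socs3, and both are also on the Stat3 list. Without regard to size, 8 members were lower and 4 higher at an adjusted p under 0.05, among them Bcl6 (-0.65) and the cyclin gene Ccnd2 (-0.61). The Stat6 target list, with 12 of 20 genes tested, had 5 DEGs lower and 4 higher (median -0.58). Here Mrc1 (4.79) and Arg1 (3.81), markers of interleukin-4 stimulated macrophages, rose, and Mrc1 is also on the macrophage marker list. Ccl22, a chemokine gene of such cells, fell from 574 counts over the HO + Vehicle libraries to 2 over the HO + β-SITO libraries, and Retnla had no count in any library. Of the Stat4 target list 2 of 8 genes were tested, and Hlx rose (1.74), while Ifng and Gzmb had no count in any library.

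**Figure D3:**
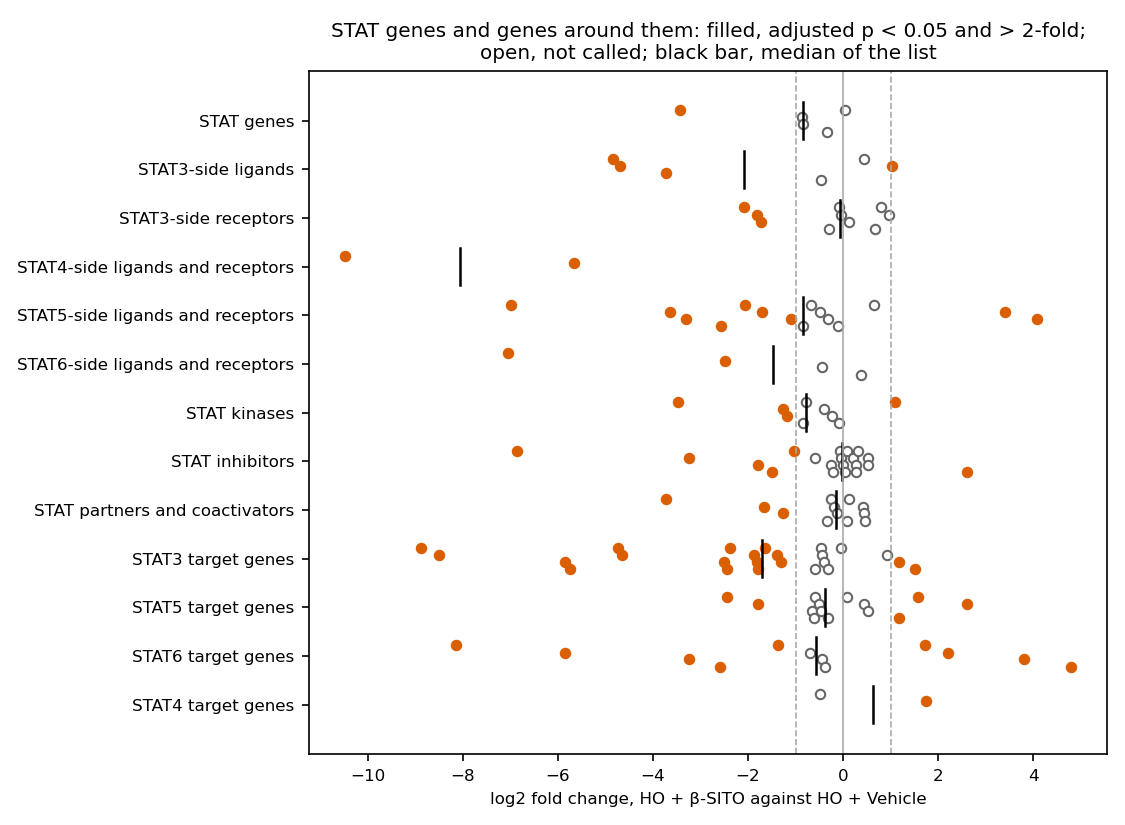
Log2 fold change (HO + β-SITO against HO + Vehicle) of every tested gene, in rows for the STAT genes and for each list of ligands, receptors, kinases, inhibitors, partners and targets. Filled points are DEGs, open points are not, the black bar is the median of the row and dashed lines mark 2-fold; the Stat3 targets have a median of -1.71 and the inhibitors one of -0.03.

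Over all of these lists, with each gene counted once, 116 of 152 genes were tested, giving 44 DEGs that were lower, 14 that were higher and a median of -0.45 on the log2 scale. Among all genes tested the counts were 1492 lower (10.1%) and 1888 higher (12.8%).

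The genes next to the STATs on their chromosomes did not follow them in a uniform way. Beside Stat2, the nearest tested genes Spryd4 (log2 fold change -0.22), Timeless (-0.37), Pan2 (0.23) and Cnpy2 (0.22) had small values, and none was a DEG. Beside the chromosome 11 group, Rab5c had a log2 fold change of -0.86 and Ghdc of -0.21 on one side, and Cavin1, a caveolar coat gene, rose (1.30) on the other. Beside Stat6, Lrp1 had a log2 fold change of 0.53, Nab2 of -0.42, Nxph4 of 0.29 and Nemp1 of -0.01. Around Stat4, Nabp1 (0.36) and Nab1 (-0.91) were not DEGs.

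The protein-coding genes whose centred log2 CPM over the 6 libraries lay closest to that of a STAT were found by the root mean square difference (RMS, in log2 units). For Stat2 they were Parp9 (RMS 0.0606, log2 fold change -3.45), Helz2 (0.0653, -3.38) and Sp100 (0.0678, -3.35). For Stat3 they were Pde4b (RMS 0.0275), Scara3 (0.0298) and Uba1 (0.0299), and for Stat5a Hk1 (0.0262) and Ntn1 (0.0352). For Stat6 they were Epc1 (RMS 0.0230), Atic (0.0253) and Bmp1 (0.0291), and for Stat5b Myo9b (0.0273), Nsmce3 (0.0276) and Wbp11 (0.0287). These distances describe 6 libraries in 2 groups and carry no test.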

How the data were processed

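RNA-seq of 6 libraries was analysed. Per the labels, the authors used FastQC, HISAT2, featureCounts and the build GRCm39, and the paper names 150 bp paired-end reads. The deposited values are raw counts per gene, not normalized; counting options, strand and annotation are not given in the sources used here, and labels and paper name different library kits. With R 4.3.3 and edgeR 4.0.16, counts were filtered (filterByExpr), normalized by TMM and tested with the quasi-likelihood test, with the group as the only term and Benjamini-Hochberg adjustment over all genes tested. The common biological coefficient of variation was 6.52%. Standard errors were derived from the F statistic. Alternatives were DESeq2 1.42.0, limma 3.58.1 (voom), glmTreat, other scalings and filters, and each library left out. The edgeR fit was also run on simulated data with a smaller share of changed genes than here, which does not show its error rate for these data. Exon lengths and transcripts came from GENCODE vM21, start-site windows from RefSeq, both on GRCm38 and used for no coordinate of the counts. At 3 libraries a group, exact permutation tests cannot go below 0.1. Intervals cover counting error only where stated. The members, lists and motifs were chosen with earlier results of these data known. Named genes were the members, their neighbours, up to 3 genes most like each, genes fixed by name, and up to 4 DEGs per list, those that changed most among genes averaging 20 counts or more; other list genes named in the text were picked after their values were seen. Some results are not reported here.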

Additional observations from a re-analysis of the deposited data

How the results depend on the processing

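Under the 16 alternatives to the comparison, Stat2 was a DEG in all, and no log2 fold change of a tested STAT gene changed sign (Stat3 -0.89 to -0.71, Stat5a -0.88 to -0.69, Stat5b 0.01 to 0.19, Stat6 -0.36 to -0.19). Without the fold-change cutoff, 9892 genes passed in place of 3380, 4 STAT genes in place of 1, and 98 genes of the lists in place of 58. Without a low-count filter 2 STAT genes were called, the second being Stat4. Stat5b passed at an adjusted p under 0.05 with library size only (0.0172) and with upper quartile normalization (0.0191), where DEGs that were higher made up 63.9% and 63.7% of calls, against 55.9% with TMM. With each library left out in turn, 3467 to 3610 genes, 1 STAT gene and 58 to 62 list genes were called, and the Stat5a share differed by -14.5 to -12.0 percentage points. Differences in share per length (percentage points) became -26.6 for Stat2, 9.12 for Stat3, 0.0554 for Stat4, 6.44 for Stat5b and 10.3 for Stat6 without division by length. With the longest transcript as the length, chosen after seeing the data, they were -29.5 for Stat2, 8.19 for Stat3, 0.977 for Stat5a, 6.25 for Stat5b and 14.0 for Stat6. The reference values were -30.3, 6.23, 0.0958, 0.645, 7.75 and 15.6 for Stat2, Stat3, Stat4, Stat5a, Stat5b and Stat6. No paired analysis was made, since the groups share no replicate numbers. Whether libraries of both groups came from shared cell preparations is not given in the sources used here. At this depth Stat4 cannot be measured with precision.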
